A study of Mus musculus with 9 samples.

Results

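Cell cycle and DNA replication genes were examined here in 9 chromatin immunoprecipitation sequencing (ChIP-seq) libraries from the mouse 3T3-L1 line, preadipocytes that can be turned into adipocytes in culture. The 45 genes were chosen by name from 21887 protein-coding genes of the reference table: 21 act mainly in G1 (cyclins D and E, their kinases and inhibitors, the retinoblastoma family, E2F factors and the SCF subunits Skp1 and Skp2), 11 in S phase (licensing and replication) and 13 in G2/M. The list was drawn up by name, with earlier results of these data already known. All cultures were 3T3-L1 cells that received a negative control siRNA (siControl), siME1 or siME2, were induced to differentiate 2 days later and were fixed after another 7 days. ME1 and ME2 are malic enzymes, and the title of the series ties NADPH to histone acetylation through the deacetylase HDAC3. The antibodies recognised acetyl groups on histone H3 (AcH3) or H2B (AcH2B), or HDAC3 itself, and every pairing of antibody and siRNA was sequenced as 1 library. The antibody labels were followed for the 3 HDAC3 libraries, whose titles name H3. The labels call the cells preadipocytes while the protocol describes induction.

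Passage through G1 begins when D-type cyclins activate Cdk4 and Cdk6, which with cyclin E and Cdk2 phosphorylate the retinoblastoma proteins and release E2F factors to switch on replication genes. Licensing factors load the Mcm helicase on replication origins before S phase. Cyclin B with Cdk1 drives mitosis, checked by Bub1 and Bub1b, while Cdc20 activates the anaphase-promoting complex. Confluent 3T3-L1 cells pass through mitotic clonal expansion soon after induction and then leave the cycle as they become adipocytes. The transcripts of these genes were not measured in the data used here.

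Depth and the number of listed regions set what could be seen. The AcH3 libraries held 21995, 34799 and 28415 regions in siControl, siME1 and siME2, at a recovered depth of 6.75, 8.38 and 7.35 fragments per kb of genome. The AcH2B libraries held 20046, 54649 and 32465 regions at 8.42, 8.40 and 8.13 fragments per kb. The HDAC3 libraries held 4614, 5202 and 1597 regions at 6.04 to 7.79 fragments per kb. At the genome background, a region needed at least 8 or 9 fragments to be listed for AcH3, 9 to 11 for AcH2B and 5 or 6 for HDAC3, so a gene without a region was below that limit and not shown to lack the mark. Of 8 preadipocyte and fibroblast markers, 6 or 7 had an AcH3 or AcH2B region in every library, against 0 to 3 of 8 adipocyte markers, 0 to 2 of 4 leukocyte markers and 0 of 4 endothelial markers. The share of all protein-coding genes ran from 10.1% (AcH2B, siControl) to 47.0% (AcH3, siControl). These ranges pool the libraries, so they do not show which low counts differ from the share in the same library.

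Among members with a RefSeq promoter, 6 that differ in what the libraries listed are printed first. Cdk4 had a region of all 3 antibodies, Rbl1, Mcm5 and Cdk1 had AcH3 in all 3 libraries, and Mcm6 and Ccnb2 had it in siControl only. Each line is the 250 bases before the transcript start, 5′ to 3′ along the gene, from RefSeq on GRCm38.p6. Capitals mark letters that E2F factors can bind (TTCCCGC or TTGGCGC, as well as TTCGCGC or TTGCCGC), CHR letters found in many mitotic promoters (TTTGAA or TTCGAA) and the CCAAT box, on either strand, and neighbouring matches may overlap.
Cdk4 (chr10:127063285-127063534, plus strand): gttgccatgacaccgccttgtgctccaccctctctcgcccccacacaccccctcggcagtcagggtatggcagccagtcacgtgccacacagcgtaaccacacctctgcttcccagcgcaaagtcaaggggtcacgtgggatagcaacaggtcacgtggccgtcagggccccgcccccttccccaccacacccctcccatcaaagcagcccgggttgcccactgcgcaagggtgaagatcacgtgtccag
Rbl1 (chr2:157204535-157204784, minus strand): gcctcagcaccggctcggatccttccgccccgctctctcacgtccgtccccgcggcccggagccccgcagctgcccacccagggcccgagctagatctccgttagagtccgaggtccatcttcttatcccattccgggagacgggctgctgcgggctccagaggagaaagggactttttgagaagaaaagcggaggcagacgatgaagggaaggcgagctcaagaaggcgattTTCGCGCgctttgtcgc
Mcm5 (chr8:75109259-75109508, plus strand): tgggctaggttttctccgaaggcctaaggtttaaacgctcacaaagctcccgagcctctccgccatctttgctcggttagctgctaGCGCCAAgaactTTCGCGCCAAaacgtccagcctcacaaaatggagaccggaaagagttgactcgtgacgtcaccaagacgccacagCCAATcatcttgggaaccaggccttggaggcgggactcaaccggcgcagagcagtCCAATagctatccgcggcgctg
Mcm6 (chr1:128359706-128359955, minus strand): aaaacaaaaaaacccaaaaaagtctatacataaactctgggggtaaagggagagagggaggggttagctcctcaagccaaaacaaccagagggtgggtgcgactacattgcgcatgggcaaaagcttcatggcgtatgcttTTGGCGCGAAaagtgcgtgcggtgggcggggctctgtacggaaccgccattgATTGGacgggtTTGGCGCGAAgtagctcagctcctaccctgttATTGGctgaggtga
Cdk1 (chr10:69352913-69353162, minus strand): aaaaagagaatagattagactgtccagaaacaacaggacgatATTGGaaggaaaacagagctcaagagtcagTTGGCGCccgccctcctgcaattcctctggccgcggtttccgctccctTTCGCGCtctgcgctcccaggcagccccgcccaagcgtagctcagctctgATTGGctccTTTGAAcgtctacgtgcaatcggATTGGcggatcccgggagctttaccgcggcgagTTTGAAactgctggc
Ccnb2 (chr9:70421555-70421804, minus strand): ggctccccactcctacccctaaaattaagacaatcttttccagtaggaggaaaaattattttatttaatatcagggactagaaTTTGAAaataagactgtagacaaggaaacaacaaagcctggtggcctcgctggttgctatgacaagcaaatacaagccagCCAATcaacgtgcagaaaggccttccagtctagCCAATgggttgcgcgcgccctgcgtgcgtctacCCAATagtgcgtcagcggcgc
The Mcm6 promoter holds 4 E2F matches, in 2 overlapping pairs, and 2 CCAAT matches, and Mcm5 holds 3 E2F and 2 CCAAT matches. Cdk1 holds 2 E2F, 2 CHR and 3 CCAAT matches, Ccnb2 holds 1 CHR and 3 CCAAT matches, Rbl1 holds 1 E2F match and Cdk4 holds no match.

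A RefSeq promoter was found for 35 of the 45 genes, with 42 starts in all. E2F letters stood in 31.0% of these 42 windows, against 7.89% of the 32851 windows of the whole table, and CHR letters in 31.0% against 17.1%. CCAAT stood in 59.5% against 33.8%. Over the 21263 windows of protein-coding genes, E2F, CHR and CCAAT letters stood in 10.0%, 15.9% and 35.4%. The median window of a member held 19 CpG dinucleotides, against 6 in the whole table and 10 for protein-coding genes. E2F letters were found in 6 of 10 S phase windows, 4 of 21 G1 windows and 3 of 11 G2/M windows. CHR letters were found in 6 of 11 G2/M windows, 5 of 21 G1 windows and 2 of 10 S phase windows. CCAAT was found in 10 of 11 G2/M windows, 7 of 21 G1 windows (33.3%) and 8 of 10 S phase windows. A match is a run of letters and says nothing of binding.

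AcH3 was the mark that most of these genes carried. An end region, meaning a deposited region that overlaps by at least 1 bp the window within 1 kb of either annotated gene end, was listed in siControl at 40 of 45 genes (88.9%, Wilson 95% interval 76.5 to 95.2). The share of all protein-coding genes marked in that library was 47.0%. In siME1 it was 31 of 45 (68.9%, 54.3 to 80.5), against 41.7% of all genes, and in siME2 20 of 45 (44.4%, 30.9 to 58.8), against 23.9%. Intervals cover counting error only, and with 1 library per antibody and siRNA no difference between siRNAs has a replicate check.

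AcH2B went the other way in number. It was listed at 9 of 45 genes in siControl (20%, 10.9 to 33.8), 20 in siME1 (44.4%, 30.9 to 58.8) and 18 in siME2 (40%, 27.0 to 54.5). The shares of all genes were 10.1%, 30.6% and 25.8%. HDAC3 was listed at 1, 1 and 2 of the 45 genes, where the shares of all genes were 4.53%, 2.99% and 1.91%.

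**Figure D1:**
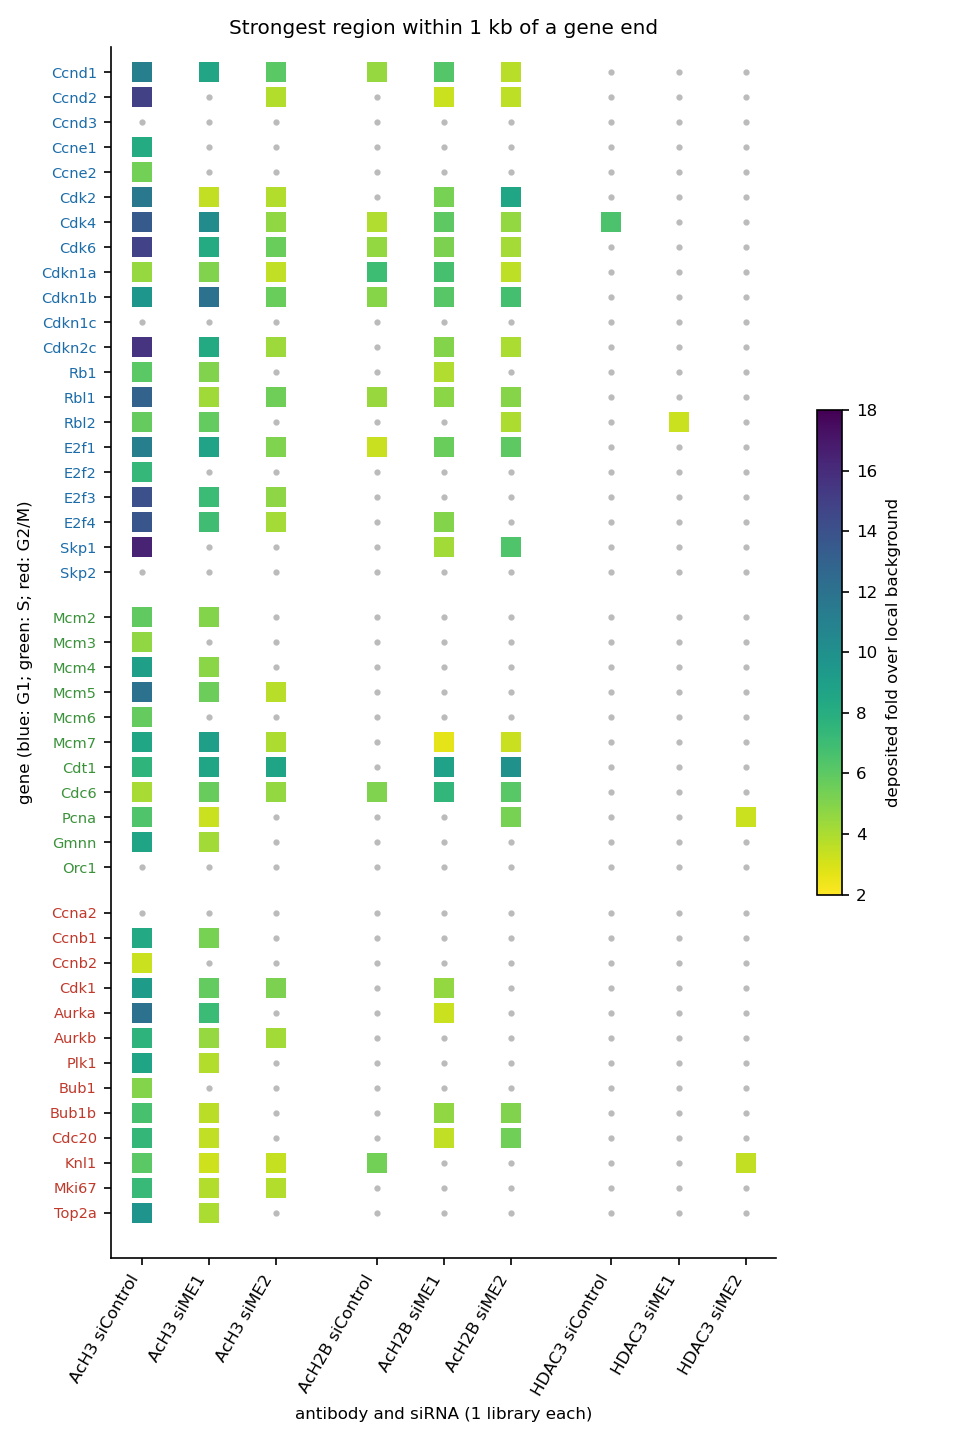
Deposited fold over local background of the strongest end region of each of the 45 genes (rows, by phase) in the 9 libraries (columns); squares are coloured by fold, and small grey dots are genes with no end region listed. AcH3 fills 40 rows in siControl, 31 in siME1 and 20 in siME2, and AcH2B fills 9, 20 and 18.

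In siME2 the AcH3 count was higher among G1 genes than in the other phases. Of the 21 G1 genes, siControl listed AcH3 at 18, siME1 at 13 and siME2 at 12. Among S phase genes the counts were 10, 8 and 4 of 11, and among G2/M genes 12, 10 and 4 of 13. Of the genes marked in siControl, 12 of 18 G1 genes kept an AcH3 region in siME2 (66.7%, 43.7 to 83.7), against 4 of 10 S phase genes (40%, 16.8 to 68.7) and 4 of 12 G2/M genes (33.3%, 13.8 to 60.9). These intervals overlap, and over all genes 48.5% kept it. With equal numbers of regions the siME2 counts for G1, S and G2/M were 12, 4 and 3 and the siME1 counts 12, 8 and 5. With a −log10 p of at least 10 they were 5, 1 and 0 in siME2 and 10, 4 and 3 in siME1. In a second list of 88 cell cycle genes that are not members, 9 of 22 G1, 8 of 31 S phase and 14 of 32 G2/M genes kept AcH3 in siME2, so the G1 share was not the highest there.

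AcH2B in siControl was listed at 7 of 21 G1 genes, 1 of 11 S phase genes and 1 of 13 G2/M genes. A window of 10 kb gave 12, 2 and 2, but with a −log10 p of at least 10 only 1, 0 and 1 were left, so the G1 count rests on weakly scored regions. In siME1 the counts were 13, 3 and 4, and in siME2 12, 4 and 2. The second list had AcH2B at 9, 37 and 33 of its 88 genes, with 4 of 22, 2 of 33 and 3 of 33 in siControl for G1, S and G2/M. For AcH3 that list had 85, 68 and 31 of 88 in the 3 libraries.

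**Figure D2:**
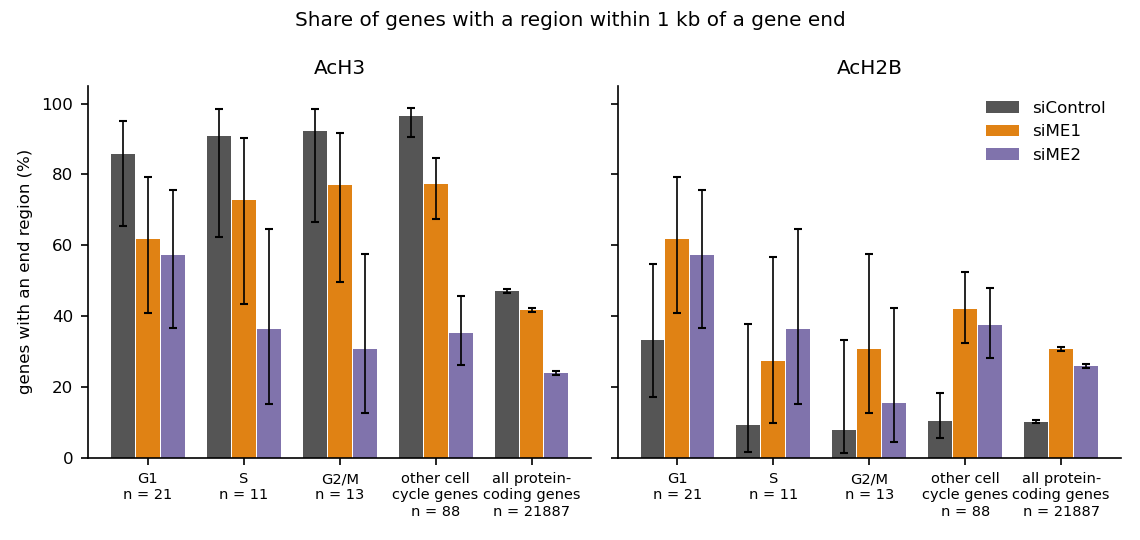
Percent of genes with an AcH3 (left) or AcH2B (right) end region for G1, S and G2/M members, the 88 other cell cycle genes and all protein-coding genes; bars are single libraries coloured by siRNA, and error bars are Wilson 95% intervals for counting error. In siME2 AcH3 marks 12 of 21 G1, 4 of 11 S and 4 of 13 G2/M members, and the error bars overlap.

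Relative to siControl, 9 of 40 members lost their AcH3 end region in siME1 (22.5%, 12.3 to 37.5), and 14.0% of all genes marked in siControl did. In siME2, 20 of 40 lost it (50%, 35.2 to 64.8), near the 51.5% of all genes. None of the 5 unmarked members gained AcH3 in either knockdown, where 2.44% and 2.02% of all unmarked genes did and 0.640% of all genes gained it in both. Both comparisons use the same siControl library. Restricting the libraries to regions with a −log10 p of at least 10 raised the loss in siME1 to 19 members, and equal numbers of regions raised it to 15. Both settings also remove regions of other genes, and no share of all genes is given for them. The 14.0% above is therefore no comparison for these counts. Members lost in siME2 had a median siControl fold of 6.98, and those kept had 11.1. The same medians over all genes were 8.24 and 11.3. By phase the lost and kept medians were 6.70 and 13.2 in G1 and 6.16 and 8.04 in S phase, but 7.89 and 7.41 in G2/M. Except in G2/M, the siControl height of a region moved with the call, and its part in the result was not tested.

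AcH3 stood in all 3 libraries at 19 of the 45 genes, against 22.2% of all genes, and at 5 with a −log10 p of at least 10 (Ccnd1, Cdk6, Cdkn1b, E2f1 and Cdt1). More members were marked in siControl to begin with. Of genes with AcH3 in siControl, 19 of 40 members and 4865 of 10295 genes over all had it in all 3, which are close shares. Among the G1 regulators AcH3 stood in all 3 libraries at 11 of 21 genes. Ccnd1, the cyclin D1 gene, had a fold over local background of 11.1 with siControl, 8.56 with siME1 and 6.11 with siME2. Its partner kinases Cdk4 and Cdk6 had 13.5, 10.3 and 4.65, and 14.9, 8.19 and 5.64. For all 3 genes the order was siControl, siME1, siME2.

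At Cdk4, 47 fragments covered the siControl summit (exact Poisson 95% interval 34.5 to 62.5), 44 the siME1 summit (32.0 to 59.1) and 14 the strongest siME2 summit (7.65 to 23.5). The strongest siME2 region at Cdk4 was also elsewhere: its summit lay 736 bp before the start, and a second region inside the gene had a fold of 2.73.

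Cdk2, which pairs with cyclin E, had AcH3 folds of 11.6, 3.50 and 3.86. Rbl1 and E2f1, a retinoblastoma family member and the factor that family holds back, had 13.0, 4.29 and 5.53, and 11.1, 8.71 and 5.07. E2f3 and E2f4 had 14.1, 7.08 and 4.74, and 13.7, 6.89 and 4.13. E2f3 also had a siME2 region of fold 8.03 outside the window, 422 bp from an internal RefSeq start, so its siME2 value depends on the start used. Every knockdown value in these 5 genes was below its siControl value. The E2f4 region also lies at an end of Exoc3l.

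Among the kinase inhibitors, Cdkn2c, which binds Cdk4 and Cdk6, had folds of 15.6, 8.27 and 4.34, in the same order of libraries as Cdk4 and Cdk6. Cdkn1b and the annotated start of Cdkn1a did not follow that order. Cdkn1b (p27) had 9.58, 12.0 and 5.68, with 60 fragments at its siControl summit (45.8 to 77.2), 45 in siME1 (32.8 to 60.2) and 18 in siME2 (10.7 to 28.4). Its higher fold in siME1 therefore came with fewer fragments. Cdkn1a (p21) had 4.53, 5.03 and 3.51 at its annotated gene start, and the fragment intervals at these summits overlapped. These values compare different places: the siControl region lay 194 to 729 bp inside the gene and both knockdown regions before the start.

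Cdkn1a has a second RefSeq start inside the gene, 2790 bp downstream, where AcH3 was higher: 15.7, 9.13 and 6.76. There the order was again siControl, siME1, siME2. Cdkn1c (p57), the third inhibitor of that family, had no end region of any antibody, and its nearest AcH3 siControl region was 86931 bp away.

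AcH3 was lost in both knockdowns at 8 genes (17.8% of the 45, where 6.04% of all genes did so), and 4 of them are G1 genes. Of genes with AcH3 in siControl, 8 of 40 members and 1322 of 10295 genes over all lost it in both. The member count was 18 with a −log10 p of at least 10 and 12 with equal numbers of regions. No share of all genes is given for these settings. Ccne2, Mcm3, Ccnb2 and Bub1 were among the 8 but not among the 18. Ccne1 and Ccne2, the cyclin E genes, had siControl folds of 8.23 and 5.43, and E2f2 had 7.32. The siControl summit of Ccne1 held 23 fragments (14.6 to 34.5), that of Ccne2 14 (7.65 to 23.5) and that of E2f2 20 (12.2 to 30.9). The nearest knockdown AcH3 region was 4077 bp from Ccne1 in siME1 and 2004 bp in siME2, and over 30 kb from Ccne2 in both.

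The fourth, Skp1, an adaptor of SCF ubiquitin ligases, was lost through the window and not through the mark. Its AcH3 regions had folds of 16.5, 10.3 and 7.24, all within 1 kb of the RefSeq start. That start lies 1473 bp inside the annotated gene end, and the siME1 and siME2 regions began 1009 and 1140 bp from that end, against 910 bp in siControl. AcH2B regions at the RefSeq start of Skp1 had folds of 7.56, 6.96 and 6.42 in siControl, siME1 and siME2, although the gene counts as gained in both knockdowns. In siME2 that region reached into the window. In siME1 it did not, and the call rests on a separate region of fold 4.22 that siControl does not list.

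Ccnd2 was the only member lost in siME1 and kept in siME2, and it too lies at the edge. Its siControl fold was 14.9 and its siME2 fold 3.86, and in siME1 a region of fold 8.32 began 1183 bp from the gene end. Rb1, the retinoblastoma gene, was listed at 6.08 and 5.00 but not in siME2, and Rbl2 had 5.78 and 5.81 and none in siME2.

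**Figure D3:**
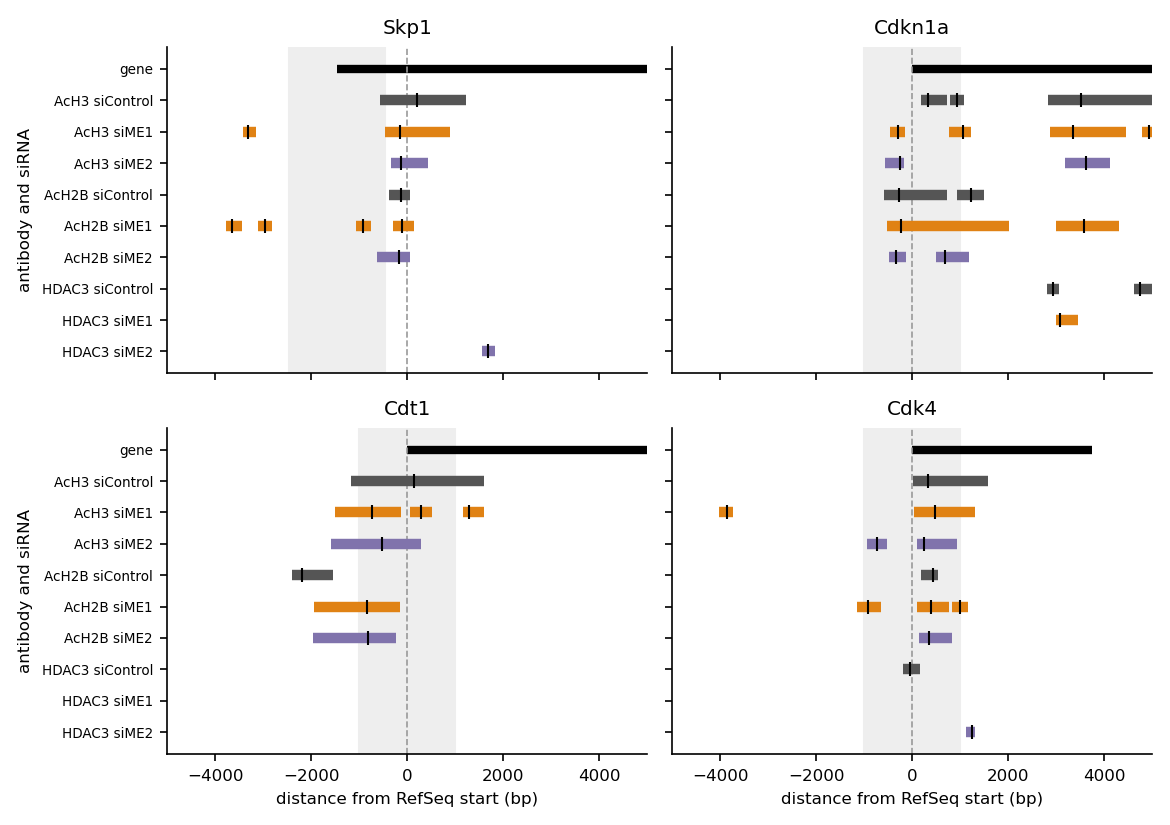
Regions around the first RefSeq start (dashed line, positive distances inside the gene) of Skp1, Cdkn1a, Cdt1 and Cdk4; bars are regions coloured by siRNA, ticks their summits, the black bar the annotated gene and the grey band the window within 1 kb of its start-side end. Skp1 regions sit at the RefSeq start, 1473 bp inside the annotated gene end, and Cdt1 AcH3 summits stand at 150 bp in siControl and at -731 and -526 bp in siME1 and siME2.

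Counting regions within 1 kb of any RefSeq start as well as the gene ends, an alternative chosen after seeing the data, moved several of these calls. AcH3 was then lost in both knockdowns at 7 genes, without Skp1, and present in all 3 libraries at 21. By phase AcH3 marked 20, 16 and 14 of 21 G1 genes, 11, 9 and 4 of 11 S phase genes, and 12, 10 and 4 of 13 G2/M genes. The shares of all genes by this count were 49.8%, 44.4% and 25.9%, with 6.02% lost in both and 24.4% in all 3. Of the 10892 genes with AcH3 in siControl by this count, 1317 lost it in both and 5342 had it in all 3. Every one of the 35 members with a RefSeq start had AcH3 within 1 kb of one in siControl, 27 did in siME1 and 17 in siME2, against 49.3%, 43.4% and 24.4% of all genes with a RefSeq start.

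That count brings in 3 of the 5 genes with no end region in any library. Ccnd3, the cyclin D3 gene, had AcH3 at an internal start with folds of 14.7, 4.59 and 4.09, and AcH2B there of 5.17 in siME1 and 5.48 in siME2. Skp2, which recognises p27 for degradation, went from an AcH3 fold of 9.32 to 4.74 between siControl and siME1, and Orc1, a subunit of the origin recognition complex, had 9.77 and 4.74. Neither had a region within 1 kb of a RefSeq start in siME2. Ccna2, the cyclin A2 gene, just missed the window: its siControl region, of fold 6.84, began 1011 bp from the gene end and its siME1 region, of fold 3.31, 1360 bp from it. The last of the 5 is Cdkn1c.

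Among the S phase genes, Cdt1 stood apart from the general order by its strongest regions. Cdt1, which loads the Mcm helicase with Cdc6, had AcH3 folds of 7.56, 8.52 and 8.68, with 26, 31 and 26 fragments at the summit (17.0 to 38.1, 21.1 to 44.0 and 17.0 to 38.1). These intervals overlap, so the counts do not separate the 3 libraries. The siControl region was 2761 bp wide with its summit 150 bp inside the gene, and the siME1 and siME2 summits lay 731 and 526 bp before the start. A separate siME1 region, 51 to 513 bp inside the gene and so over the place of the siControl summit, had a fold of 6.66. AcH2B at Cdt1 had no end region in siControl and folds of 8.80 and 9.98 in the knockdowns, the highest AcH2B fold of any member in each. A siControl AcH2B region of fold 3.03 lay 1557 bp from the gene end.

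Cdc6 kept AcH3 by the window only. Its siControl region, of fold 4.07, sat at the gene start, and the AcH3 regions in siME1 (fold 5.71) and siME2 (fold 4.61) sat at the other end of the gene, more than 16 kb downstream. AcH2B at Cdc6 was also strongest at that far end, with folds of 5.08, 7.49 and 6.15. Weaker AcH2B regions stood at its start in siME1 (3.77) and siME2 (5.59).

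The Mcm genes encode the 6 subunits of the replicative helicase. Mcm5 and Mcm7 had AcH3 in all 3 libraries, with folds of 11.9, 5.62 and 3.70 for Mcm5 and 8.52, 9.004 and 3.99 for Mcm7, whose region lies also at an end of Ap4m1. Mcm2 and Mcm4 had it in siControl and siME1, with 5.90 and 4.96, and 9.02 and 4.80, and Mcm4 shares its region with Prkdc. Mcm3 and Mcm6 had it in siControl only, with 4.65 and 5.79, from 13 fragments (6.92 to 22.2) and 15 fragments (8.40 to 24.7). AcH3 marked all 6 subunit genes with siControl, 4 with siME1 and 2 with siME2. Of the 6, Mcm7 alone carried AcH2B, of fold 2.64 in siME1 and 3.34 in siME2.

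Pcna, the sliding clamp of the replicative polymerases, had AcH3 of fold 6.42 with siControl and 3.26 with siME1 at an end shared with Cds2. The Pcna summits held 24 fragments (15.4 to 35.7) in siControl and 23 (14.6 to 34.5) in siME1. Local background there was 1.64 and 2.74 times that of the genome. The siControl summit lay 943 bp inside the gene and the siME1 summit 489 bp before the start. Gmnn, which holds Cdt1 back, had AcH3 folds of 8.69 and 4.24. Neither had an AcH3 end region in siME2, where Pcna had AcH2B of fold 5.30 at its other end, shared with Tmem230. Pcna also had a weaker siME2 AcH2B region, of fold 3.59, with its summit 455 bp from its start.

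Among the G2/M genes, Cdk1, the mitotic kinase, had AcH3 folds of 9.20, 5.87 and 5.15, from 34 fragments (23.5 to 47.5), 21 (13.0 to 32.1) and 15 (8.40 to 24.7). Aurkb, Knl1 and Mki67 also kept AcH3 in all 3 libraries. Their folds were 7.63, 4.52 and 4.19 for Aurkb, a chromosomal passenger kinase, 6.11, 3.22 and 3.38 for the kinetochore gene Knl1, and 7.20, 3.85 and 3.87 for Mki67, whose product is the proliferation marker Ki-67. In all 4 genes both knockdown folds were below siControl.

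The other 8 marked G2/M genes had no AcH3 end region in siME2. Ccnb1 (cyclin B1), Aurka, Plk1, Bub1b, Cdc20 and Top2a were still listed in siME1, with folds of 5.29, 7.12, 3.85, 3.63, 3.52 and 4.05, against 8.37, 11.9, 8.69, 6.64, 7.41 and 9.70 in siControl. The siME1 region of Bub1b sat at the far end of the gene and not at its start, and the Aurka regions lie also at an end of Cstf1. Ccnb2 (cyclin B2) and the spindle checkpoint kinase Bub1 were listed in siControl only, with folds of 3.28 and 4.98 from 14 fragments (7.65 to 23.5) and 17 (9.90 to 27.2). Ccnb2 had the lowest siControl fold of the 40 marked genes.

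Where AcH3 was listed in both libraries, its fold was mostly lower in the knockdown. In siME1, 25 of 31 such members were lower, with a median ratio to siControl of 0.551 (range 0.301 to 1.40). In siME2, 18 of 20 were lower, with a median ratio of 0.462 (0.259 to 1.15). The medians over all genes were 0.596 and 0.437. The members above siControl in siME1 were Cdkn1a, Cdkn1b, Rbl2, Mcm7, Cdt1 and Cdc6, and in siME2 Cdt1 and Cdc6. At Cdc6 the ratio compares opposite ends of the gene. At Cdkn1a it compares regions that do not overlap, and AcH3 at the internal start of Cdkn1a was lower in both knockdowns. The lowest siME2 ratio, of Ccnd2, also compares different regions: the siControl region at the place of the siME2 region had a fold of 4.34, against 3.86. Among members whose 2 strongest regions overlapped, 23 of 27 were lower in siME1 (median ratio 0.551) and 15 of 16 in siME2 (0.462). The exceptions were Cdkn1b, Rbl2, Mcm7 and Cdt1 in siME1 and Cdt1 in siME2. At Cdkn1b, Rbl2 and Mcm7 the higher siME1 fold came with fewer summit fragments and a lower local background than in siControl. Their siControl and siME1 counts were 60 and 45, 41 and 37, and 38 and 32, with overlapping intervals. At Cdt1 a siME1 region over the place of the siControl summit had a fold of 6.66, against 7.56 in siControl. The median width of the strongest AcH3 region went from 1340.5 bp in siControl to 631 bp and 461 bp, and over all genes from 1320 bp to 759 bp and 480 bp.

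**Figure D4:**
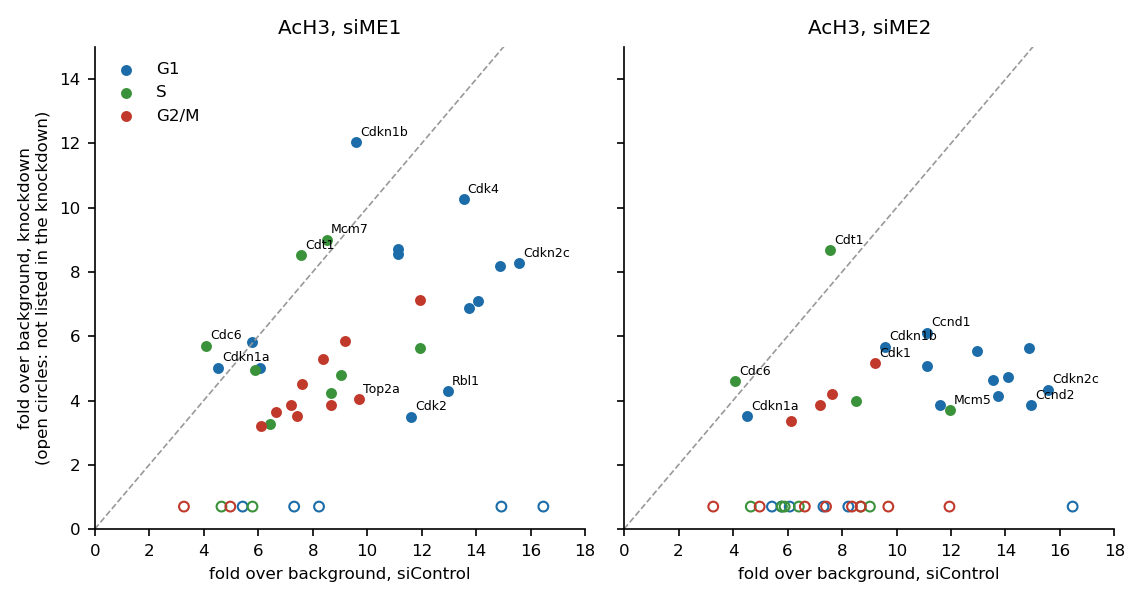
Deposited AcH3 fold in siControl (x axis) against siME1 (left) and siME2 (right) for members listed in both (filled circles, coloured by phase), with members not listed in the knockdown as open circles near the bottom at an arbitrary height; the dashed line marks equal folds. Of the filled circles, 25 of 31 in siME1 and 18 of 20 in siME2 lie below the line.

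All 9 members with AcH2B in siControl also had AcH3 there, and all 9 kept an AcH3 end region in both knockdowns. At Cdc6, which is among the 9, the knockdown AcH3 regions lay at the other end of the gene from the siControl region. Of the 31 members with AcH3 but no AcH2B in siControl, 22 kept AcH3 in siME1 and 11 in siME2 (35.5%). Over all genes with AcH3 in siControl, 97.9% and 87.0% of those with AcH2B kept it in siME1 and siME2, and 83.1% and 39.1% of those without, so the same direction held over all genes.

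Of genes with AcH2B in siControl, 8 of 9 members and 1820 of 2214 genes over all had it in all 3 libraries. The 8 genes with AcH2B in all 3 libraries, against 8.32% of all genes, were 7 G1 genes and Cdc6. A window of 10 kb raised that count to 16, and with a −log10 p of at least 10 it was 0. Their folds in siControl, siME1 and siME2 were 4.51, 6.26 and 3.73 for Ccnd1. The siME2 region of Ccnd1 overlaps a second siControl region, of fold 4.81, and not the first. A siME1 region that overlaps the first also had a fold of 6.26. Cdk4 had 3.90, 5.96 and 4.60, and Cdk6 had 4.62, 5.13 and 4.17. For these kinase genes siME1 had the highest of the 3 values.

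Cdkn1a had the highest siControl value, with 7.06, 6.74 and 3.62, and Cdkn1b had 4.89, 6.20 and 6.76. Rbl1 had 4.45, 4.76 and 4.89, and E2f1 had 3.33, 5.66 and 5.99. The ratio to siControl over the 8 genes had a median of 1.33 in siME1 (0.956 to 1.70) and 1.14 in siME2 (0.513 to 1.80). At Ccnd1 this ratio compares regions at different places. At E2f1, 15 fragments covered the siControl summit (8.40 to 24.7), 22 that of siME1 (13.8 to 33.3) and 23 that of siME2 (14.6 to 34.5), and these intervals overlap.

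AcH2B was gained by 12 of 36 members in siME1 (33.3%, 20.2 to 49.7), where 23.4% of all unmarked genes gained it. In siME2 it was gained by 10 of 36 (27.8%, 15.8 to 44.0), where 19.2% did. AcH2B was gained in both at 8 of the 36 members and at 2652 of the 19673 genes unmarked in siControl. The 8 genes gained in both, against 12.1% of all genes, were Ccnd2, Cdk2, Cdkn2c, Skp1, Mcm7, Cdt1, Bub1b and Cdc20. That count was 5 with a window of 0.5 kb or with the summit inside the window. It was 3 with equal numbers of regions (Cdk2, Cdt1 and Bub1b). With a −log10 p of at least 10 it was 6, but only Cdk2 and Cdt1 were among the genes named above. The rest were Cdkn1b, Rbl1, E2f1 and Cdc6, whose siControl AcH2B regions scored below that limit. Cdk2 had folds of 5.29 and 8.51, at its far end, which lies also at ends of Pmel and Rab5b. In siME2 Cdk2 also had a weaker region, of fold 4.58, with its summit 642 bp from its start. Cdkn2c had 4.98 and 4.02, Ccnd2 had 3.26 and 3.59, and Bub1b 4.67 at its far end in siME1 and 5.03 at its start in siME2. Cdc20, the activator of the anaphase-promoting complex, had 3.53 and 5.48.

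Knl1 was the 1 member that lost AcH2B in either knockdown, and it did so in both. Of all marked genes, 5.19% lost it in siME1 and 15.6% in siME2. Loss in both was found at 67 of 2214 marked genes, or 0.306% of all genes. The siControl AcH2B region of Knl1 had a fold of 5.40 and 23 fragments (14.6 to 34.5), 101 bp before the start. In siME2 an HDAC3 region of fold 3.48, from 8 fragments (3.45 to 15.8), lay at the same start, with its summit 98 bp before it. Its −log10 q was listed at 0, so it would not pass a limit of 0.05 on q.

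Both acetylation marks were listed at 10 of 21 G1 genes, 3 of 11 S phase genes and 0 of 13 G2/M genes in siME2, against 11, 3 and 4 in siME1 and 7, 1 and 1 in siControl. Over all genes both marks stood at shares of 9.18%, 27.8% and 17.1% for siControl, siME1 and siME2. The G2/M count of AcH2B in siME1 fell from 4 to 1 with equal numbers of regions and to 0 with a −log10 p of at least 10. The 2 G2/M genes with AcH2B in siME2, Bub1b and Cdc20, had no AcH3 end region there.

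The 1 member with a strong HDAC3 region was Cdk4. In siControl its summit stood 54 bp before the start, with a fold of 6.54, 13 fragments (6.92 to 22.2) and a −log10 q of 5.46. No HDAC3 end region was listed at Cdk4 in either knockdown, and in siME2 a region of fold 3.90 began 1125 bp inside the gene. Of all genes with HDAC3 in siControl, 80.4% and 84.7% lost it in siME1 and siME2, so the loss at Cdk4 is what most such genes showed. Loss in both knockdowns was found at 3.27% of all genes. No member had HDAC3 in all 3 libraries or gained it in both, and 0.320% and 0.142% of all genes did.

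The other HDAC3 end regions were Rbl2 in siME1 (fold 3.26, 7 fragments, 2.81 to 14.4), and Pcna (3.28) and Knl1 in siME2, each with a −log10 q of 0. These 3 were gains, found at 2.21% of all genes without HDAC3 in siControl for siME1 and 1.28% for siME2. At the internal start of Cdkn1a, the HDAC3 fold was 3.92 with siControl and 2.38 with siME1. These are counts of under 10 fragments each.

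The regions of members with a known strand sat mostly at the start of the gene. In siControl the strongest AcH3 region was nearest the start in 32 of 32 such members, in siME1 in 23 of 25 and in siME2 in 15 of 16. For AcH2B the counts were 7 of 8, 13 of 16 and 13 of 16. Within 1 kb of the start, 23 siControl AcH3 summits were inside the gene and 8 before it, against 12 and 10 in siME1 and 7 and 7 in siME2. The median summit of the regions at the start moved from 263.5 bp inside the gene in siControl to 182 bp inside in siME1 and 244 bp before it in siME2, over 32, 23 and 15 members. AcH2B summits lay mostly before the start, with medians of -177, -404 and -374 bp over 7, 13 and 13 members. The members differ between libraries, so these medians do not follow the same genes.

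**Figure D5:**
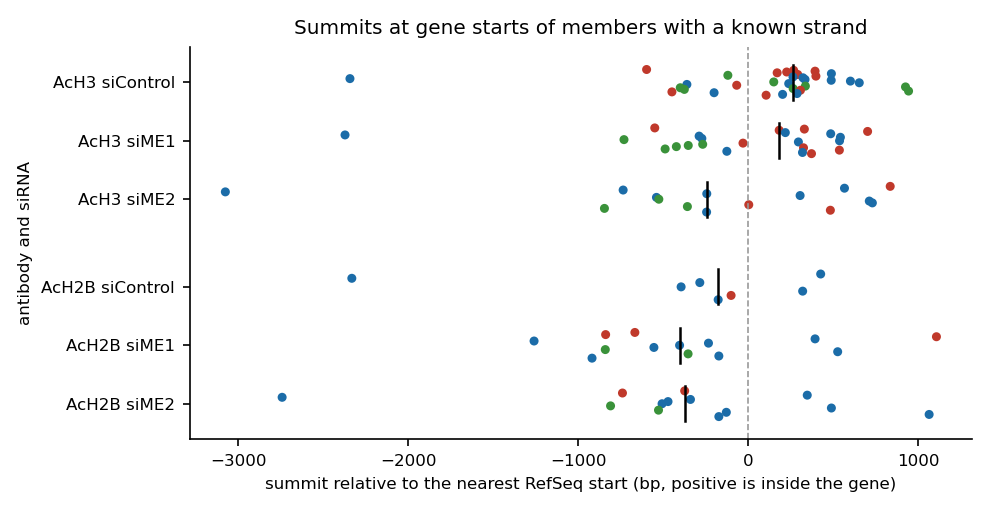
Distance of the summit of the strongest start-side region from the nearest RefSeq start (x axis, bp, positive inside the gene) in each AcH3 and AcH2B library; points are members coloured by phase (blue G1, green S, red G2/M) and black bars are medians. AcH3 medians are 263.5, 182 and -244 bp in siControl, siME1 and siME2, and the point at -2343 bp in siControl is Cdk6.

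The promoter letters were also counted by AcH3 call. E2F letters stood in 10 of 20 windows of genes with AcH3 in all 3 libraries and in 2 of 17 windows of genes that lost it in siME2. CHR letters stood in 4 of 20 and 8 of 17, and CCAAT in 8 of 20 and 14 of 17. The median window held 20 and 13 CpG dinucleotides. In windows of all protein-coding genes with the same 2 calls, E2F letters stood in 14.4% and 15.1%, CHR letters in 11.8% and 12.5%, and CCAAT in 33.9% and 38.4%, so the wide gaps among members were not seen over all genes. Genes with several starts count more than once, and Skp1 counts here as lost. Cdc6 counts as kept, though its knockdown AcH3 regions lie at its far end. The groups differ in phase, and none of this was separated. Mcm6, with 4 E2F matches in the window printed above, is among the genes that lost AcH3 in both knockdowns, and Cdk4, with no match, is among those that kept it.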

How the data were processed

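Each library came as 1 peak table. The submitters' processing notes list MACS2, BWA, bedtools, SAMtools, deepTools and the build mm8. Versions and settings were not given in the sources used here. Tables have 10 columns with no header, identified from their ranges. The deposited pileup is a coverage signal at the summit, the deposited significance is a −log10 p-value and a −log10 q-value, and the deposited fold is a ratio to local background with 1 added to both terms, the authors' own value for each peak. Scaffold names and gene starts matched GRCm38, so coordinates were read as GRCm38, counted from 1.

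Peaks sharing coordinates were merged to 1 region, scored by the highest −log10 p. A gene had an end region if a region overlapped by 1 bp or more the window within 1 kb of either end in the RefSeq table of GRCm38.p6, and was lost or gained against siControl of the same antibody. Fragments were recovered from the pileup step (at least 99.99% of values whole within 0.0101), with exact Poisson 95% intervals. PCR copies are not independent molecules, so intervals and Wilson intervals cover counting error only. Strand and promoters came from RefSeq for 35 of 45 members. No test across siRNAs was possible with 1 library per group. Calls were tested on simulated data. Python 3.11.15, pandas 2.3.3, numpy 2.4.6, scipy 1.17.1 and matplotlib 3.10.9 were used. The members, lists and the rule for named genes were chosen with earlier results of these data known: genes were named if AcH3 was lost in both knockdowns or present in all 3 libraries, if AcH2B was present in siControl or gained in both, if no region was listed, or if HDAC3 had an end region, and further members were named after their values were seen. Alternatives were windows of 0.5 and 10 kb, summits inside the window, a −log10 p of at least 10, equal numbers of regions, region overlap, and leaving out high background.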

Additional observations from a re-analysis of the deposited data

How the results depend on the processing

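No paired analysis was possible because each antibody and siRNA had 1 library. For these members, leaving out regions of high background (over 5 times that of the genome) changed no count by over 1.5 times. The strongest end regions of members reached at most 3.55 times that background. This setting could therefore remove no member call and is not a check on them. With a window of 0.5 kb AcH2B was lost in siME2 at 2 members, and HDAC3 was listed and gained in siME2 at 1 each. With 10 kb AcH2B marked 16 in siControl and was lost at 0 in siME1 and 0 in siME2, AcH3 was lost in siME1 at 5, and HDAC3 marked 7, 5 and 5, lost 4 and gained 2 in siME1 and lost 5 in siME2. With the summit inside the window AcH3 was gained in siME1 at 1 and AcH2B lost in siME1 at 2. With a −log10 p of at least 10 AcH3 marked 17 in siME1 and 6 in siME2, and was lost at 19 and gained at 2 in siME1. AcH2B then marked 2, 11 and 10 in siControl, siME1 and siME2 and was lost in siME2 at 2, while HDAC3 (limited on q) marked and gained 0 in siME1 and 0 in siME2. With equal numbers of regions AcH3 was lost in siME1 at 15, AcH2B marked 13 and gained 5 in siME1 and was lost in siME2 at 2, and HDAC3 marked and gained 0 in siME1. By overlap of the regions themselves AcH3 was gained at 2 in siME1 and 2 in siME2. With RefSeq starts added, HDAC3 marked 2 in siControl and 3 in siME1, gained 2 in siME1 and lost 2 in siME2. The cause of these shifts was not tested. A strict limit and equal numbers of regions leave fewer regions by construction. No share of all genes is given under these settings, except for AcH3 with RefSeq starts added. Depth limits calls to about 8 to 11 fragments for the acetylated histones.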
